A study of Mus musculus with 2 samples.

Results

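The genes described here encode the machinery that copies nuclear DNA in S phase. They are 51 genes, taken by symbol from a fixed list, out of 23176 in the table, and all 51 had a test there. They were grouped as 26 genes of origin licensing and firing, 10 of the replicative polymerases, 10 of the sliding clamp, its loader and lagging-strand completion, and 5 of nucleotide supply. Their messenger RNA was measured by sequencing polyadenylated RNA in a pair of mouse cell lines of the 129SvEv/CD1 strain. Both lines were derived from the striatum at embryonic day 14. The STHdhQ7 line has the genotype HdhQ7/Q7 and the STHdhQ111 line the genotype HdhQ111/Q111, in which the huntingtin gene carries an expanded glutamine tract as in Huntington's disease. Cultures below passage 15 were kept at 33 °C and then spent 2 days at 39 °C. The shift is meant to halt their division, which was not measured here. Each line has 3 replicates by its sample titles, and the table holds 1 combined value per line.

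Replication is prepared in G1 phase and carried out in S phase. The origin recognition complex marks start sites, CDC6 and CDT1 load the ring-shaped MCM2-7 helicase there, and the ring is then activated by CDC45, the GINS complex and kinases. Polymerase alpha with primase lays down primers, polymerases epsilon and delta extend them, and the PCNA clamp holds the polymerases on DNA. Most of these genes are transcribed at the G1 to S transition under E2F factors, which the retinoblastoma proteins restrain. Lines of this name are known to be conditionally immortal through a temperature-sensitive viral large T antigen, a protein that binds the retinoblastoma proteins and is lost at the higher temperature.

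Levels are in FPKM, a fragment count corrected for the length of the transcript and the size of the library, which the authors combined over replicates. No spread between replicates can be given, and the depth behind each value is unknown. A gene is named called where its q-value, the p-value adjusted over all tested genes, was 0.05 or less in the authors' deposited table. The implied standard error used below is the log2 fold change over the test statistic of that table. The design sets 1 line against 1 line, so huntingtin genotype and any other difference acquired by either line cannot be told apart. Because RNA was taken from whole cultures, fewer cycling cells and less of each RNA per cell cannot be told apart either.

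The lines differed in identity markers as well. Of 11 neuron markers, 8 were under 0.5 FPKM in both lines, among them Rbfox3 and the striatal genes Ppp1r1b and Drd1, the last at 0 in both. The neuronal gene Stmn2 fell from 33.5 to 0.0563 FPKM. Map2 (14.3 and 17.1 FPKM) and Tubb3 (2.42 and 3.62 FPKM) had the higher value in STHdhQ111 and were not called. Of the 7 progenitor markers tested 5 were called lower, among them Sox2 (72.0 to 0.561 FPKM), and 1 higher, Sox9 (5.15 to 18.96 FPKM). All 10 progenitor markers summed to 3509 and 2511 FPKM, most of it Vim, and the 9 others to 206 and 28.8 FPKM. The 10 mesenchymal markers summed to 1007 and 2614 FPKM, and the 9 other than Col1a1 to 555 and 1127 FPKM. Of the 8 tested, 3 were called higher, among them Col1a2 (11.5 to 533 FPKM). Postn was called lower (7.93 to 1.46 FPKM), and 4 were not called. Of 10 markers of microglia and leukocytes, 8 lay under 0.5 FPKM in each line and 3 of these were at 0 in both. The other 2, Cd68 and Laptm5, were called higher, and the list summed to 26.9 and 73.9 FPKM. All 7 oligodendrocyte markers and 4 of 6 endothelial markers were under 0.5 FPKM in both lines, and the other 2 endothelial markers were called, Flt1 lower (7.45 to 0.783 FPKM) and Tek higher (0.386 to 1.46 FPKM). The part of these marker differences in the results below was not tested. Htt itself was listed at 3.91 and 2.83 FPKM (the authors' q = 0.663 in their deposited table).

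The replication genes were lower in STHdhQ111 almost throughout. Of the 51 genes, 48 had the lower value in that line, against 54.5% of all tested genes. The authors' deposited table called 19 of them lower, 37.3% of the 51, where 7.17% of the 12740 tested genes, or 5.2% of those with a mean of 5 FPKM or more, were called lower. None of the 51 was called higher, where 6.35% of all tested genes were. Even at an unadjusted Cuffdiff p-value of 0.05, none of the 51 was higher, against 25 lower. Of the 12740 tested genes, 1200 were higher and 1499 lower at that p-value. With 0.5 FPKM added to each value, the log2 ratio of STHdhQ111 to STHdhQ7 had a median of -0.99 for the 51 genes and -0.05 for all tested genes. Summed over the 51 genes, the level went from 1859 to 786 FPKM. The order of the genes by level was similar in the lines (Spearman's rho = 0.93 across 51 genes, a description, since the genes share both samples).

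**Figure D1:**
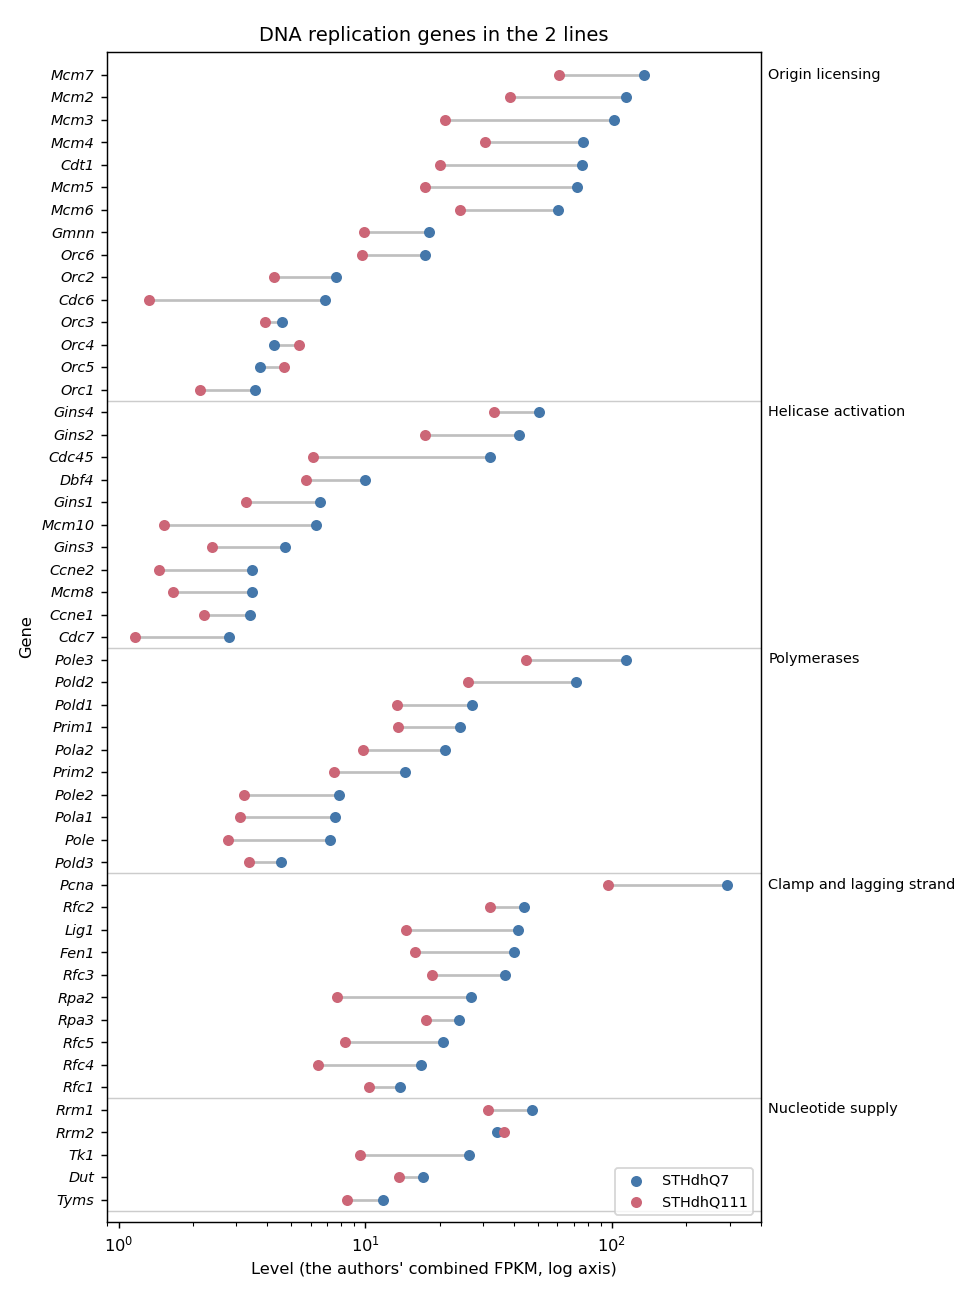
FPKM (log axis) of the 51 replication genes in STHdhQ7 (blue) and STHdhQ111 (red), 1 combined value per line, grouped by role and ordered by level in STHdhQ7. The red point lies left of the blue point in 48 genes; Orc4, Orc5 and Rrm2 are the exceptions.

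Within origin licensing, all 6 subunits of the MCM2-7 helicase ring fell in STHdhQ111. Mcm3 (chromosome 1, 20793095 to 20810294 on the mm9 build, as for the other table loci below) fell from 102 FPKM in STHdhQ7 to 21.1 in STHdhQ111, with -2.27 ± 0.40 as its log2 fold change and implied error in the authors' deposited table (their q = 5.25e-07). Mcm5 (chromosome 8, 77633427 to 77652338) fell from 72.0 to 17.4 FPKM (-2.05 ± 0.40 on the same log2 scale in the authors' deposited table). These were the steeper falls of the ring. Mcm2 (chromosome 6, 88833468 to 88848774) fell from 114 to 38.7 FPKM (-1.56 ± 0.39, log2, with q = 0.000840 in the authors' deposited table). Mcm4 (chromosome 16, 15623990 to 15637493) fell from 76.2 to 30.5 FPKM, and Mcm6 (chromosome 1, 130228168 to 130256233) from 60.4 to 24.1 FPKM, both at -1.32 on that scale in the authors' deposited table. Every ring subunit except Mcm7 was lower in STHdhQ111 than any ring subunit in STHdhQ7. Mcm7 (chromosome 5, 138605817 to 138613090) had the highest level of the ring in both lines, at 135 and 61.0 FPKM, and the smallest fall (-1.14 ± 0.39, log2 with implied error, in the authors' deposited table, q = 0.0264). The subunits assemble in equal numbers, and their FPKM spanned a range of 2.24-fold in STHdhQ7 and 3.51-fold in STHdhQ111. Whether the falls differ between subunits was not tested. The microRNA genes Mir106b, Mir25 and Mir93 lie within the Mcm7 locus. Mir25 was listed at 11.2 and 10.8 FPKM with an implied error of 15.2 on its log2 fold change, so these values do not show whether it changed.

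MCM promoters are shown because most of them held words of the E2F type. The words searched were TTTCCCGC, TTTGGCGC, TTTCGCGC and TTTGCCGC on both strands, in a window from 250 bases before to 50 bases after the start of each RefSeq gene (GRCm38.p6, a different build from the table's). Of the 51 genes, 42 matched an entry, and Gins1, Gins2, Gins4, Gmnn, Mcm4, Pole, Prim2, Rfc2 and Ccne2 did not. Of the 5 MCM2-7 genes with a window, 4 held a word (Mcm3, Mcm5, Mcm6 and Mcm7), where 4.69% of tested genes with a window did. In the windows of Mcm5 and Mcm6, printed 5′ to 3′ along each gene, capitals mark the E2F words.
Mcm5 (chr8:75109259-75109558, plus strand): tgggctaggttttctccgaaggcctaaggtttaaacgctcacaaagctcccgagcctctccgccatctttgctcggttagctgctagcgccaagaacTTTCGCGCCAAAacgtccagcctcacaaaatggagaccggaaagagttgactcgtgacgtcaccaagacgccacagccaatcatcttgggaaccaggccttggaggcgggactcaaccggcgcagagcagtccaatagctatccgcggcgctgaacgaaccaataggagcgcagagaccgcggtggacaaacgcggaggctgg
Mcm6 (chr1:128359656-128359955, minus strand): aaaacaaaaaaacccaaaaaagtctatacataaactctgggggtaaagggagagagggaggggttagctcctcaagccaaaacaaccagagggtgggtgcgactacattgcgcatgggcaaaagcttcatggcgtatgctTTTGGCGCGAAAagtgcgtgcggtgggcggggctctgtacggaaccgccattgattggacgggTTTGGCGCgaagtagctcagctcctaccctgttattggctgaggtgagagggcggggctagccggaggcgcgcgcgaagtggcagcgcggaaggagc
In both windows 2 words on opposite strands overlap by their shared bases, so that a run of 12 capitals reads as an E2F word from either side. It begins 153 bases before the start in Mcm5 and 110 bases before it in Mcm6, which has another word 47 bases before the start. For each called replication gene with a word 1 stretch follows, and 2 for Mcm6, each printed on the strand where the word reads forward, with up to 10 bases on either side and the word in capitals.
Mcm5 (chr8:75109346-75109373, plus strand): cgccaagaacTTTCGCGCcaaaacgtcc
Mcm6 (chr1:128359794-128359821, plus strand): cgcacgcactTTTCGCGCcaaaagcata
Mcm6 (chr1:128359735-128359762, minus strand): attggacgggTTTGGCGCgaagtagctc
Mcm3 (chr1:20820276-20820303, plus strand): cttcccaagtTTTCCCGCcacggaagtt
Mcm7 (chr5:138171850-138171877, minus strand): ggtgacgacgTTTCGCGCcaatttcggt
Cdt1 (chr8:122568037-122568064, plus strand): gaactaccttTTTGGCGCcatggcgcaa
Cdc6 (chr11:98908003-98908030, minus strand): ccccaggcgaTTTCCCGCtctccaccgg
Pola1 (chrX:93632276-93632303, plus strand): cgggagtgcaTTTGGCGCcctgtgatga
Lig1 (chr7:13278842-13278869, minus strand): gccacacagaTTTCGCGCgcactttggc
In the Mcm5 stretch and the first Mcm6 stretch the word is followed by the same letters, which complete the word of the other strand.

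Over all replication genes with a window, 16 of 42 held an E2F word (38.1%), against 4.69% of the 8950 tested genes with a window. Of all 32851 windows, counted singly rather than per gene, 2.26% held a word. The median GC content was 60.8% for the replication genes, 61.2% for the tested genes and 52.7% for all windows. Of the called replication genes 8 of 17 held a word and of the uncalled ones 8 of 25, a difference that was not tested. By role, a word was found in 8 of 13 licensing genes, 2 of 7 genes of helicase activation, 4 of 8 polymerase genes, 2 of 9 clamp and lagging-strand genes and 0 of 5 nucleotide supply genes. Other lists held the words too: 9 of 35 windows of other replication genes (25.7%) and 7 of 21 of the E2F, retinoblastoma and G1 regulators (33.3%). Among mitosis genes an E2F word was found in 1 of 28 windows (3.57%). The words TTTGAA and TTTAAA, core letters of the CHR element known from mitotic promoters, were found in 78.6% of the mitosis windows, 28.6% of the replication windows and 21.8% of those of all tested genes. The CCAAT box (letters CCAAT) was found in 54.8% of the replication windows and 43.5% of those of all tested genes. A match describes letters only, and a window without one says nothing about binding of the factor.

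**Figure D2:**
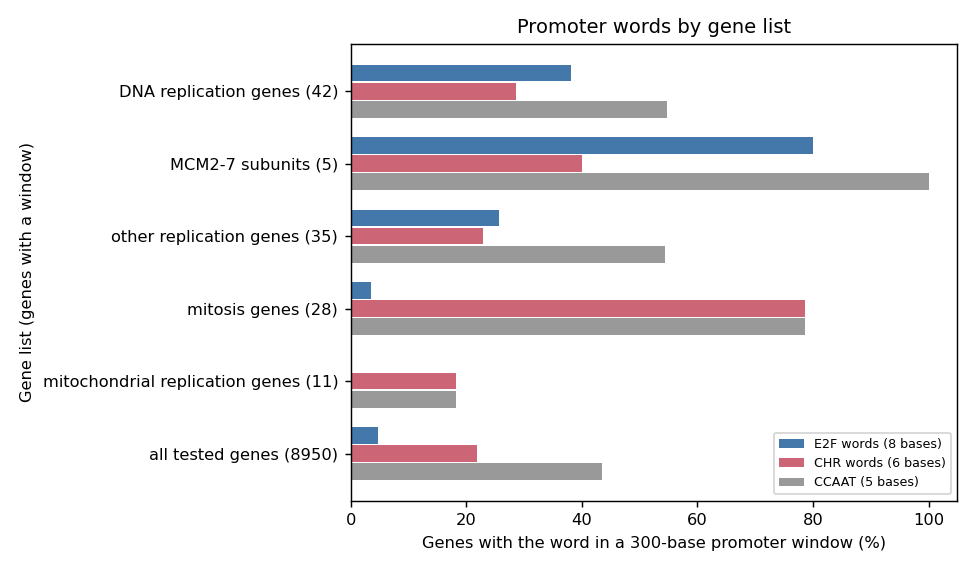
Percent of genes with an E2F word (blue), a CHR word (red) or CCAAT (grey) in the 300-base promoter window, by gene list, with the number of genes that had a window in brackets. E2F words reach 38.1% in the replication genes and 3.57% in the mitosis genes, while CHR words reach 28.6% and 78.6%.

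Windows were also chosen for the genes with the largest falls in each role and for the uncalled gene with the smallest change. Of these, Cdc6 holds 1 word, and Cdc45, Pole3, Rpa2, Pcna, Tk1 and Rrm2 hold none; those of Cdc6, Pcna and Rrm2 are printed.
Cdc6 (chr11:98907901-98908200, plus strand): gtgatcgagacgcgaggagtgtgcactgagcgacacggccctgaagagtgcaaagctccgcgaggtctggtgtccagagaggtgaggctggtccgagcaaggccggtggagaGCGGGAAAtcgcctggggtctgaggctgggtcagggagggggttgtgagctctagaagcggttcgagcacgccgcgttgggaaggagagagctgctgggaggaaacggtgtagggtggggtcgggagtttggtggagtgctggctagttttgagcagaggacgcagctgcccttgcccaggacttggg
Pcna (chr2:132253131-132253430, minus strand): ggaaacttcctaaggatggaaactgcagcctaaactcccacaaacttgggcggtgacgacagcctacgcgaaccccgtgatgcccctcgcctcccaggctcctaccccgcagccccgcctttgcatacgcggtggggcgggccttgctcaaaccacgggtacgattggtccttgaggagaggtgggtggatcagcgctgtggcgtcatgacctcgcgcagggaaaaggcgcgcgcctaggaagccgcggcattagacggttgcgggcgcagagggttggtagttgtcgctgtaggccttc
Rrm2 (chr12:24708004-24708303, plus strand): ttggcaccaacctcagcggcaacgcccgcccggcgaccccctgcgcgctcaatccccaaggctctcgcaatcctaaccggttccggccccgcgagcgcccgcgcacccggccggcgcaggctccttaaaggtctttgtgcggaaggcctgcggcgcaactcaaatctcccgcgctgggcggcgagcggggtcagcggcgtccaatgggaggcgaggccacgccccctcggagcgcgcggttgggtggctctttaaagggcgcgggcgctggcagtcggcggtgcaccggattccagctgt
Cdc6 and Pcna were called lower, and Rrm2 had the smallest absolute log2 fold change of the 51 genes.

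Of the other licensing genes, the loading factors Cdc6 and Cdt1 fell. Cdc6 (chromosome 11, 98769203 to 98785256), the ATPase that joins the origin complex, fell from 6.88 to 1.33 FPKM, which is -2.37 ± 0.61 (log2, implied error) in the authors' deposited table, with q = 0.00169. Cdt1 (chromosome 8, 125091915 to 125097030), which brings the MCM ring to the origin, fell from 75.7 to 20.1 FPKM (-1.91 ± 0.38 there, in the authors' deposited table). Gmnn, the geminin that blocks CDT1 outside G1, stood uncalled at 18.2 and 9.87 FPKM. The level of Cdt1 per Gmnn was 4.17 in STHdhQ7 and 2.04 in STHdhQ111. None of the 6 origin recognition complex genes was called in either direction, where 13.5% of all tested genes were, and none had an unadjusted Cuffdiff p-value of 0.05 or less. Orc1, the subunit whose level is known to rise in G1, was listed at 3.59 and 2.14 FPKM, Orc2 at 7.60 and 4.29 FPKM and Orc6 at 17.4 and 9.67 FPKM. Orc3 (4.60 and 3.94 FPKM), Orc4 (4.26 and 5.40 FPKM) and Orc5 (3.75 and 4.67 FPKM) lay closer together, and Orc4 and Orc5 had the higher value in STHdhQ111. However, Orc3, Orc4 and Orc5 share their table locus with Akirin2, Acvr2a and Gm15421, with implied standard errors of 0.89, 0.75 and 0.65. Orc1, Orc2 and Orc6 have a locus of their own. The complex summed to 41.2 and 30.1 FPKM, a ratio of 1.37-fold, where the MCM2-7 sum of 559 and 193 FPKM gave 2.90-fold. The 95% intervals of the log2 fold change from the implied errors ran from -1.78 to 0.28 for Orc1 and from -1.13 to 1.81 for Orc4, and the lower bounds of Orc2, Orc3 and Orc6 were -1.73, -1.98 and -1.92. Falls as large as that of Mcm7 thus lay within the intervals of Orc1, Orc2, Orc3 and Orc6.

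In the group of helicase activation, which also holds Mcm8, 2 of 11 genes were called lower (18.2%, where 7.17% of tested genes were). Cdc45 (chromosome 16, 18780540 to 18812065), which travels with the helicase, fell from 32.1 to 6.15 FPKM. At -2.39 ± 0.49 (log2, implied error) in the authors' deposited table, with q = 2.87e-05, it had the steepest value of the 51 genes. Mcm10, a scaffold needed for activation, fell from 6.33 to 1.53 FPKM (-2.05 ± 0.53, log2, in the authors' deposited table). The 4 GINS genes all had the lower value in STHdhQ111, where 54.5% of all tested genes did. None was called in either direction, where 13.5% of all tested genes were, so an absence of calls among 4 is near the background. Gins1 was listed at 6.55 and 3.29 FPKM, Gins2 at 42.0 and 17.5 FPKM, Gins3 at 4.71 and 2.39 FPKM and Gins4 at 50.5 and 33.2 FPKM. GINS holds 1 copy of each, and the level of Gins4 per Gins3 was 10.7 in STHdhQ7 and 13.9 in STHdhQ111. The kinase Cdc7 (2.80 and 1.16 FPKM) and its activator Dbf4 (9.96 and 5.76 FPKM) were not called. The E cyclins Ccne1 (3.41 and 2.23 FPKM) and Ccne2 (3.47 and 1.46 FPKM), which activate CDK2 at the start of S phase, were not called either. Mcm8, an MCM relative that acts in recombination rather than in the ring, was listed at 3.47 and 1.67 FPKM without a call.

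All 10 polymerase genes had the lower value in STHdhQ111, where 54.5% of all tested genes did. Of the 10, 3 were called lower (30%, where 7.17% of tested genes were). Pole, the catalytic subunit of the leading-strand polymerase epsilon, fell from 7.18 to 2.78 FPKM (-1.37 ± 0.43, log2, in the authors' deposited table). Its small histone-fold subunit Pole3 fell from 114 to 44.9 FPKM (-1.35 ± 0.39, log2, in the authors' deposited table), while Pole2, at 7.80 and 3.22 FPKM, was not called (the authors' q = 0.119). The level of Pole3 per Pole was 15.9 in STHdhQ7 and 16.2 in STHdhQ111. POLE3 is also known as a subunit of a chromatin remodelling complex. In polymerase alpha and primase, Pola1, the catalytic chain, fell from 7.51 to 3.11 FPKM and was the called gene nearest the threshold (the authors' q = 0.0474 in their deposited table). Pola2 (21.1 and 9.81 FPKM), Prim1 (24.3 and 13.6 FPKM) and Prim2 (14.5 and 7.49 FPKM) were not called. No gene of polymerase delta was called: the catalytic Pold1 was listed at 27.2 and 13.5 FPKM (the authors' q = 0.0659, the smallest of the uncalled genes), Pold2 at 71.3 and 25.98 FPKM and Pold3 at 4.57 and 3.37 FPKM. At an unadjusted Cuffdiff p-value of 0.05, 7 of the 10 polymerase genes were lower, where 1499 of the 12740 tested genes were.

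Of the 10 clamp and lagging-strand genes, 5 were called lower (50%, where 7.17% of tested genes were). The clamp Pcna (chromosome 2, 132075022 to 132078916) had the highest level of the 51 genes in both lines. It fell from 292.1 to 95.9 FPKM, or -1.61 ± 0.38 (log2, implied error) in the authors' deposited table, with q = 0.000448. In STHdhQ7 1.53% of tested genes had a higher level than Pcna, and in STHdhQ111 5.87%. The nuclease Fen1 (chromosome 19, 10273629 to 10278433), which trims Okazaki fragments, fell from 40.03 to 15.97 FPKM. The ligase Lig1 (chromosome 7, 13844316 to 13896776), which seals them, fell from 41.6 to 14.6 FPKM. Their log2 changes were -1.33 ± 0.39 and -1.51 ± 0.42 in the authors' deposited table. Of the 5 clamp loader genes, only the small subunit Rfc5 was called (20%), and it fell from 20.6 to 8.27 FPKM. Its partners were listed at 13.9 and 10.4 FPKM (Rfc1), 43.8 and 32.1 FPKM (Rfc2), 36.9 and 18.7 FPKM (Rfc3) and 16.9 and 6.45 FPKM (Rfc4). In the single-strand binding complex, Rpa2, the subunit phosphorylated in the cell cycle, fell from 26.7 to 7.69 FPKM (-1.80 ± 0.45, log2, in the authors' deposited table). Rpa3, the smallest subunit, stood uncalled at 23.96 and 17.6 FPKM. The largest subunit Rpa1, outside the 51 genes, was listed at 85.9 and 94.3 FPKM, also without a call.

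In nucleotide supply 1 of 5 genes was called (20%, where 7.17% of tested genes were called lower). Tk1, the cytosolic thymidine kinase of S phase, fell from 26.2 to 9.54 FPKM (-1.46 ± 0.52, log2, with q = 0.0370 in the authors' deposited table). Ribonucleotide reductase makes the deoxynucleotides from a large subunit, Rrm1, and a small one, Rrm2. Rrm1 was listed at 47.2 and 31.4 FPKM, and Rrm2 (chromosome 12, 25393119 to 25399011) at 34.1 and 36.5 FPKM. Neither was called, and Rrm1 per Rrm2 was 1.39 in STHdhQ7 and 0.861 in STHdhQ111. In the authors' deposited table the log2 fold change of Rrm2 was 0.10, with a 95% interval from the implied error of -0.64 to 0.85. The interval of Tk1 ran from -2.47 to -0.45 and overlaps it. Whether Rrm2 differs from Tk1 or other called genes was not tested. Tyms, the thymidylate synthase, was listed at 11.8 and 8.42 FPKM, and Dut, which removes dUTP, at 17.2 and 13.6 FPKM. The summed level of the group was 136 and 99.6 FPKM, 1.37-fold. Sums gave 2.62-fold for licensing and firing genes, 2.35-fold for polymerases and 2.44-fold for clamp and lagging-strand genes. Such sums rest most on the genes of highest level. The median falls were 1.396-fold for nucleotide supply, 2.144-fold for licensing and firing, 2.28-fold for polymerases and 2.498-fold for clamp and lagging-strand genes. Nucleotide supply was lowest by both measures, while the order of the other roles differed between them.

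**Figure D3:**
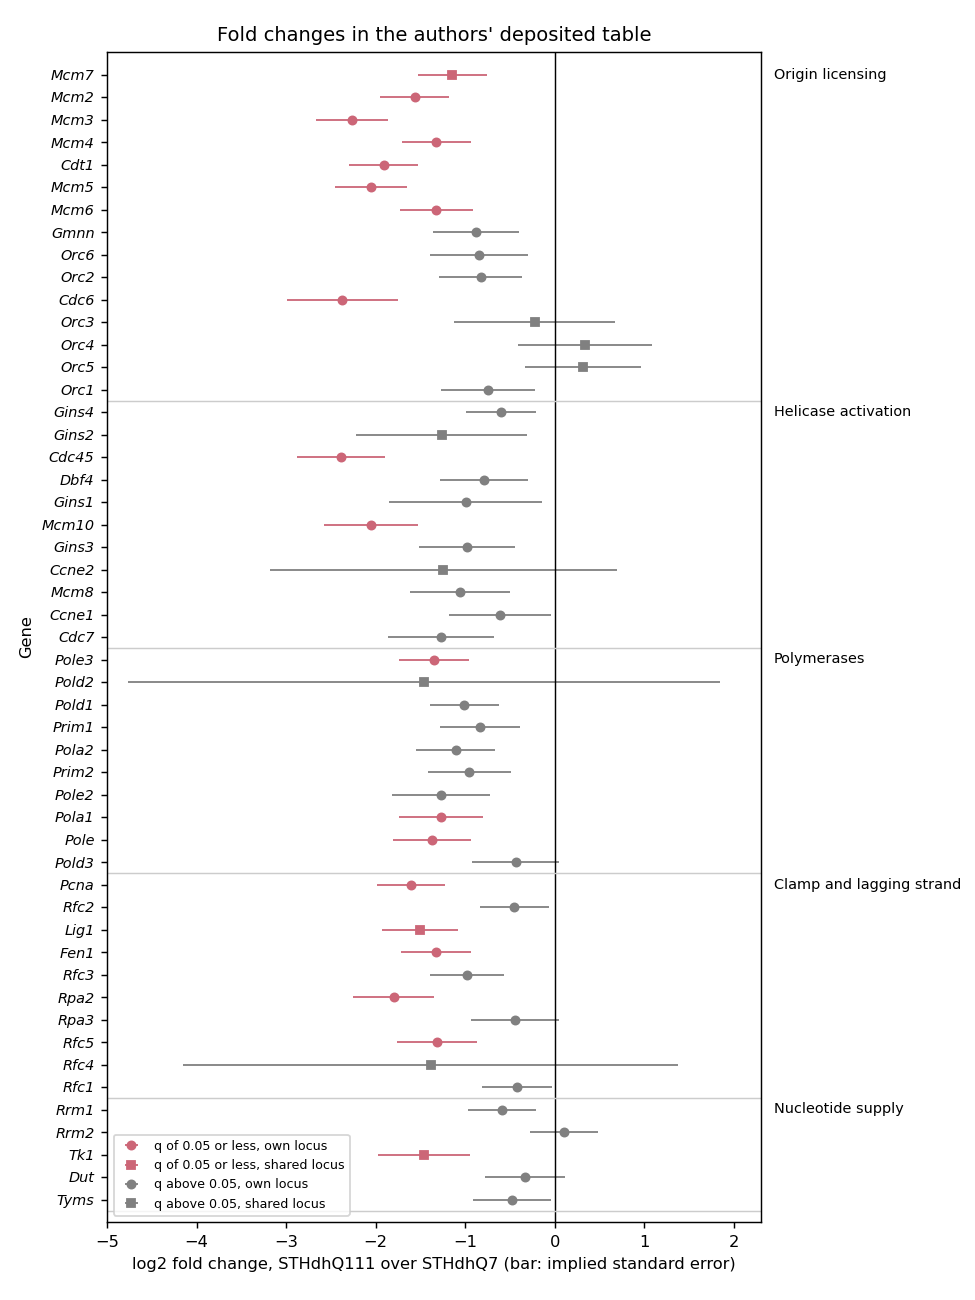
log2 fold change of each replication gene, STHdhQ111 over STHdhQ7, from the authors' deposited table; bars are the implied standard error, red marks a q of 0.05 or less, and squares mark genes whose locus is listed for another gene too. All 6 MCM2-7 genes are red, and the widest bars, Pold2, Rfc4 and Ccne2, belong to squares.

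Several uncalled genes had fold changes in the range of called ones. The smallest called fall among the 51 genes was that of Mcm7, and 6 uncalled genes of the authors' deposited table had a log2 fold change at least as low: Pold2, Rfc4, Pole2, Cdc7, Gins2 and Ccne2. Of these, Pold2, Rfc4, Gins2 and Ccne2 share their table locus with another gene. Pold2 shares chromosome 11, 5761869 to 5778259, with Aebp1, which was listed at 3.74 and 527 FPKM. Rfc4 shares its locus with Eif4a2 (138 and 126 FPKM), Gins2 with Gse1 (11.5 and 15.9 FPKM) and Ccne2 with Ints8 (12.3 and 14.3 FPKM). The implied standard error of the log2 fold change was 3.31 for Pold2, 2.76 for Rfc4, 1.94 for Ccne2 and 0.95 for Gins2, while the 41 replication genes with a locus of their own had a median of 0.45 and a maximum of 0.85. Over all tested genes the median was 0.56 in the 2269 that share a locus and 0.43 in the 10471 that do not, and 7.98% and 14.7% were called. Of the 10 replication genes with a shared locus 3 were called lower (Mcm7, Lig1 and Tk1), and of the 41 with their own, 16.

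**Figure D4:**
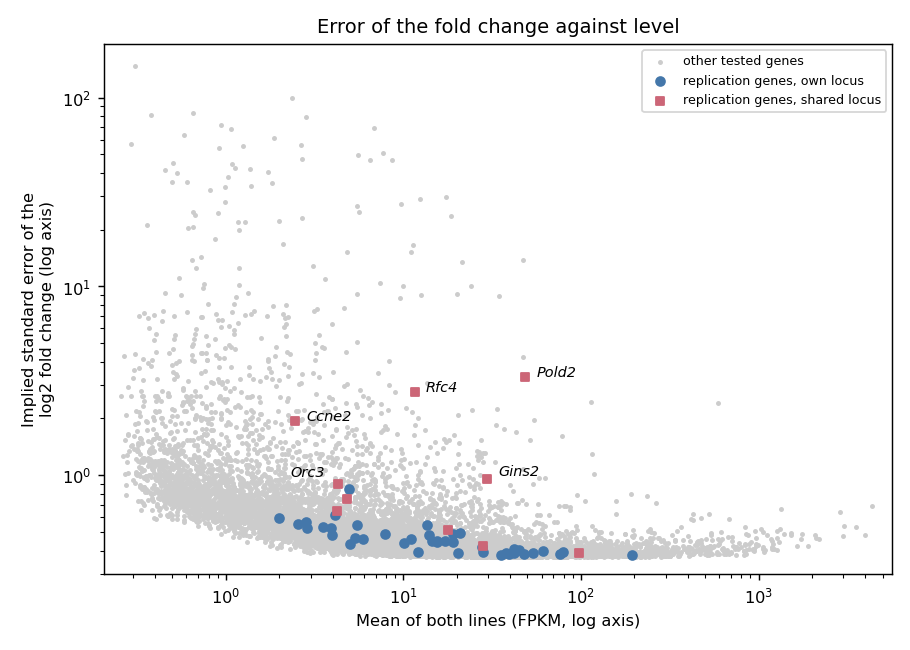
Implied standard error of the log2 fold change against the mean FPKM of both lines (both axes log) for tested genes (grey), replication genes with their own locus (blue circles) and those with a shared one (red squares). Pold2, Rfc4 and Ccne2 lie above 1, and all blue points lie below 0.86.

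Called genes were also the more abundant ones. They had a median of 41.6 FPKM in STHdhQ7 and the uncalled ones 14.2 FPKM. Counts of calls by role therefore compare genes of unequal precision. Some values may hold reads that also match another gene. Of the 31-base words of Fen1 transcripts only 20.4% occurred in no other gene's transcripts in GENCODE M21, with 76.8% found in Gm10143. The unique share was 33.8% for Gins2, 66.6% for Mcm7, 72.1% for Orc2 and 76.7% for Pcna. Their largest sharers were, in that order, Gse1 (the locus partner of Gins2), Gm5487, Nif3l1 and Pcna-ps2. The other 46 genes had 80% or more. How the authors' counting treated such reads is not given in the sources used here.

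Other genes of replication were mostly lower too. Of 46 further genes of fork proteins, chromatin assembly and S-phase control, 14 were called lower (30.4%, where 7.17% of tested genes were) and none was called higher, with none higher at an unadjusted Cuffdiff p-value of 0.05 either. Their median log2 ratio of (FPKM + 0.5) was -0.89. The nuclease and helicase Dna2 fell from 2.59 to 0.4997 FPKM, Dtl, which targets CDT1 for destruction, from 10.6 to 2.10 FPKM, and the chromatin remodeller Hells from 15.0 to 4.19 FPKM. The repair nuclease Exo1 fell from 2.03 to 0.510 FPKM and the helicase Recql4 from 6.32 to 1.59 FPKM. Ddb1, an adaptor of the ubiquitin ligase that uses DTL, stood uncalled at 272 and 321 FPKM. Rnaseh2c, a subunit of the enzyme that removes ribonucleotides from DNA, was listed at 120 and 69.9 FPKM without a call. The small polymerase subunits Pold4 (37.95 and 45.8 FPKM) and Pole4 (19.8 and 15.1 FPKM), which complete the complexes above, were not called.

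For DNA synthesis outside the nuclear fork the lists are short, and with 13.5% of all tested genes called in either direction an absence of calls in them is near the background. None of 13 tested genes of mitochondrial DNA replication and transcription and none of 11 tested repair and translesion polymerase genes was called in either direction, and none had an unadjusted Cuffdiff p-value of 0.05 or less. Their median log2 ratios were 0.03 and 0.01. The translesion polymerase Polk was listed at 18.7 and 24.2 FPKM, and the mitochondrial RNA polymerase Polrmt at 15.5 and 19.5 FPKM. Of 34 other nucleotide synthesis genes, 3 were called higher, beside 6.35% of tested genes, and none lower, beside 7.17%. At an unadjusted Cuffdiff p-value of 0.05, 6 were higher and 2 lower, where 1200 and 1499 of the 12740 tested genes were. The 3 called higher were Nme4, Impdh1 and Cad. Nme4, a mitochondrial nucleoside diphosphate kinase, rose from 43.3 to 170 FPKM. Impdh1, of guanine nucleotide synthesis, rose from 18.6 to 48.5 FPKM, and Cad, of pyrimidine synthesis, from 23.6 to 49.98 FPKM. No test compared these lists with the replication genes.

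**Figure D5:**
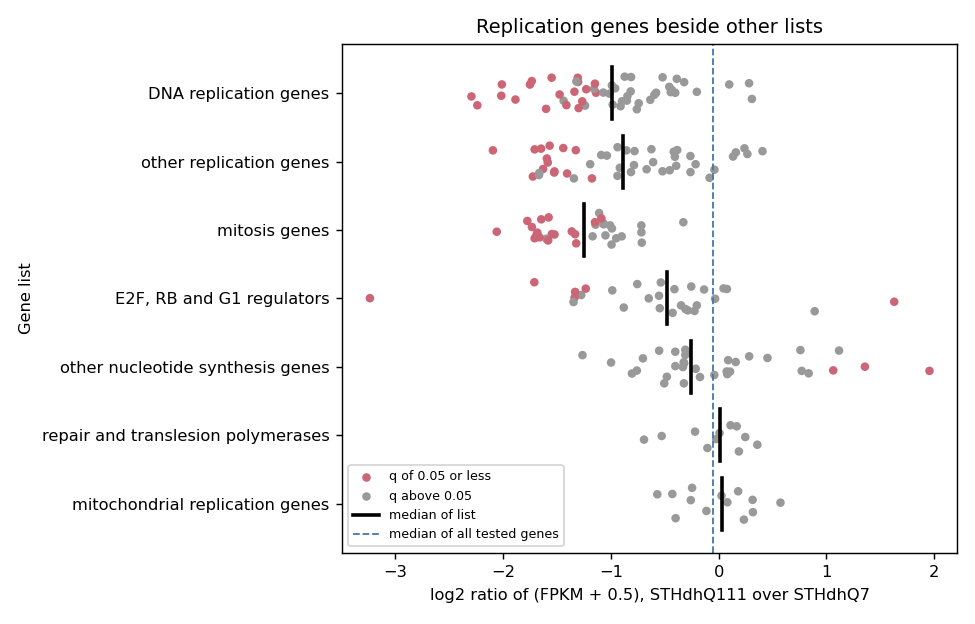
log2 ratio of (FPKM + 0.5), STHdhQ111 over STHdhQ7, of each tested gene by list; red points have a q of 0.05 or less, black bars are list medians and the dashed line is the median of all tested genes. The medians are -0.99 for the replication genes, -0.89 for other replication genes and -1.25 for mitosis genes, and 0.03 and 0.01 for the mitochondrial and repair lists.

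Mitosis genes were lower together with the replication genes. Of 34 tested, all had the lower value in STHdhQ111, against 54.5% of all tested genes. Of the 34, 18 were called lower (52.9%, where 7.17% of tested genes were) and none higher, with none higher at an unadjusted Cuffdiff p-value of 0.05, and the median log2 ratio was -1.25. The spindle midzone protein Prc1 fell from 20.7 to 4.58 FPKM and the kinesin Kif11 from 8.25 to 2.18 FPKM. Bub3, a checkpoint protein, stood uncalled at 52.5 and 41.7 FPKM. Among 28 tested E2F, retinoblastoma and G1 regulators, 5 were called lower (Ccnd1, E2f2, E2f8, Cdk6 and Ccnd2) and 1 higher, the cyclin-dependent kinase inhibitor Cdkn1c, from 24.5 to 76.9 FPKM. Over all tested genes 7.17% were called lower and 6.35% higher, so the single call upward is no more than the background share. E2f2, an activating E2F factor, fell from 1.94 to 0.245 FPKM, and the repressive E2f8 from 3.12 to 0.938 FPKM. E2f1 (28.1 and 19.0 FPKM) and the retinoblastoma gene Rb1 (18.2 and 17.7 FPKM) were not called. The share of cells in each phase was not measured, and its part in these values was not tested.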

How the data were processed

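Per the labels' protocols, polyadenylated RNA of both lines was sequenced, with no mention of marking strand. The submitters' processing notes name the mm9 build, Cuffdiff, Cufflinks 2.0.2, Bowtie 0.12.7 and TopHat 1.4.0, while options and annotation were not given in the sources used here. Per the file headers, the authors' table gives each line's FPKM with replicates combined, a log2 fold change, a p-value, a q-value and the test statistic, so no test could be refitted and no replicate left out. Replicates are not said to come from separate cultures, so the p-values may measure technical spread. From the statistic, a normal tail on both sides gave the deposited p-value to within 2.7e-06. Of 23176 genes, 12740 had the status OK, and 93 of these were listed at 0 in 1 line and carry no fold change. Locus starts were raised by 1.

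The members, lists and settings were chosen with earlier results of these data known. Any of the 51 genes could be named. Of each other list, up to 5 called genes with the largest change at 1 FPKM or more in 1 line and up to 2 uncalled genes of highest level were to be named, and not all were. Rpa1, Pold4, Pole4, E2f1, Rb1, Ccnd2, Rbfox3, Ppp1r1b, Drd1 and Sox9 were named outside that rule, after their values were seen. Promoters were to be printed for up to 2 called genes of steepest fall in each group and for the uncalled gene of smallest change. Pole had no entry, those of Cdc45, Pole3, Rpa2 and Tk1 were left out for length, and those of Mcm5 and Mcm6 and the short stretches were added after the search. Older symbols were matched through RefSeq synonyms. The adjustment and word search were tested on simulated data. The check of the implied errors only inverted their own definition, so it could not fail. It does not show that they are valid standard errors. Python 3.11.15, numpy 2.4.6, pandas 2.3.3, scipy 1.17.1 and matplotlib 3.10.9 were used.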

Additional observations from a re-analysis of the deposited data

How the results depend on the processing

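No paired analysis was possible because the table holds 1 combined value per line. The 19 replication genes called lower stayed 19 when adjusted only over genes at 1 FPKM or more in a line. With a minimum of 2-fold, before or after recentring, the count was also 19. That minimum could not lower it, because the smallest called change of any tested gene was 2.03-fold. After recentring, Mcm7, the smallest called fall of the 51 genes, was still at -1.09 (log2). The replication genes called lower were 13 at a q of 0.01 (without Mcm6, Mcm7, Pola1, Pole, Rfc5 and Tk1) and 21 at 0.1 (Pola2 and Pold1 added). With a Bonferroni adjustment 4 remained (Mcm3, Mcm5, Cdc45 and Cdt1), and 1 of the 14 other replication genes and 1 of the 18 mitosis genes. At a q of 0.01 the other replication genes called lower were 9. None of the 51 was called higher under these settings. The median log2 ratio of -0.99 was -1.10 with a pseudocount of 0.1, -0.94 with 1, -1.11 with none, -0.94 recentred on expressed genes, -0.98 scaled to the upper quartile, -1.15 at a mean of 5 FPKM or more, and its mean was -1.02. The promoters with an E2F word stayed 16 in a window of 150 bases before the start and were 14 with only TTTCCCGC and TTTGGCGC. Among genes with a locus of their own, an alternative chosen after seeing the data, 16 were called lower. Depth is unknown, and an absent call does not show an equal level.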
